A study of Mus musculus with 8 samples.

Results

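The genes described here are 10 members of the YAP-TEAD pathway in mouse pluripotent stem cells: the secreted-protein genes Cyr61 and Ctgf, the further target genes Ankrd1, Amotl2 and Lats2, the coactivator genes Yap1 and Wwtr1, and the DNA-binding partner genes Tead1, Tead2 and Tead4. They were taken by gene symbol from files of 24505 rows each, and all 10 symbols were found. Cyr61 was chosen by its own RPKM values, which differed in opposite directions between the libraries labelled KO (knockout) and wild type in the 2 cell states. They are therefore given as a description without a test. The other members were listed by name as part of the same pathway, with results of these data already known.

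YAP, the product of Yap1, and its relative TAZ, the product of Wwtr1, are coactivators without a DNA-binding domain of their own. In the nucleus they bind TEAD proteins and raise genes such as Cyr61, Ctgf, Ankrd1 and Amotl2, which respond to cell shape, adhesion, tension of the cytoskeleton and serum factors. The Hippo kinases hold them back: LATS1 and LATS2 phosphorylate YAP and TAZ, which are then kept in the cytoplasm or degraded, and angiomotins such as AMOTL2 bind them as well. Lats2 and Amotl2 are themselves targets, and so form a negative feedback. In embryonic stem cells TEAD2 and YAP are widely described in the setting of self-renewal, and TEAD4 is best known for its role in the trophoblast lineage. Tankyrases promote the degradation of angiomotins as well as of axins, and an inhibitor of tankyrases was part of the primed medium.

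RNA was sequenced from an embryonic stem cell line labelled INO80 CKO, with a conditional allele of Ino80, the ATPase gene of the INO80 chromatin remodelling complex. Naive cells were kept in N2B27 medium with the MEK inhibitor PD0325901, the GSK3 inhibitor CHIR99021 and 1000 units/ml LIF on gelatin. Primed cells were kept in N2B27 medium with 12 ng/ml FGF2, 20 ng/ml Activin A and 2 uM of the tankyrase inhibitor XAV939 on fibronectin. Each state had 2 knockout (KO) and 2 wild-type libraries by their labels, 8 in all, and the treatment text common to all samples gives 100 nM 4-OHT for 2 days and 2 further days of culture for deletion. The sources used here do not say whether 4-OHT was also given to the wild-type cells, or whether replicate libraries were grown as separate cultures. The p-values below therefore rest on the spread among these libraries alone, and that spread may be technical. Age and sex of the line are not given, all libraries come from 1 line, and the driver of the 4-OHT-dependent recombinase is not named.

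The values are RPKM (reads per kilobase of gene, scaled to sequencing depth) that the authors had scaled further, and library sums ran from 341480 to 507598, so read depth is unknown. Differences are of log2(RPKM + 1), KO minus wild type by label, ± SE, which understates the change of weakly expressed genes. They were tested with limma over 13428 genes with Benjamini-Hochberg adjustment at 0.05. The median difference of all genes was 0.049 in the naive and -0.53 in the primed state. Replicates were shifted as well. Wild-type replicate 2 minus replicate 1 had a naive median of -0.49 among genes of lowest level and 0.027 among those of highest level. The primed medians were 0.37 and 0.21. For KO replicates they were -0.12 and 0.0063 in the naive and -0.0099 and -0.095 in the primed state. The SE of the deposited values thus includes shifts that many genes of a library share. Quantile normalization of the libraries within each state is given beside the deposited values where it alters a result. It gives all libraries of a state the same distribution, so medians near 0 (0.017 and 0.026) follow from the step itself. A true change shared by most genes would be removed as well, and which scaling is right was not tested. Ino80 stood at 15.9 and 15.1 RPKM in the naive libraries labelled KO and at 17.0 and 14.5 in wild type, which did not pass (limma adjusted p = 0.975). Primed knockout stood at 9.12 and 8.74 against 15.9 and 20.3 RPKM in wild type, which passed (limma adjusted p = 2.0e-06). Of all tested genes, 59.3% were called lower in that comparison, and 76.4% had both knockout libraries below both wild-type libraries. The call alone does not set Ino80 apart from most genes there. Since naive Ino80 did not pass, the naive groups are called libraries labelled KO below. Pou5f1, the core pluripotency factor, had a mean between 582 and 693 RPKM in the 4 groups, and summed naive-state markers were at 682 to 783 RPKM in naive and 2.39 to 10.2 RPKM in primed libraries.

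The promoters of 3 targets show the sequence that TEAD proteins bind. Of the 10 members, 7 have an entry in the RefSeq promoter table (build GRCm38.p6), and Ctgf, Tead1 and Tead4 do not. The 250 bases before the start were searched on both strands for CATTCC and its reverse complement GGAATG, the core of the TEAD motif. At least 1 match was found for 5 of the 7, namely Cyr61, Ankrd1, Amotl2, Yap1 and Wwtr1, while Lats2 and Tead2 held none. Of 17 further targets of YAP and TEAD, 11 had an entry and 3 of these a match. Among all 32851 promoter entries of that table, counted per entry and not per gene, 12.6% held a match. The AP-1 motif, searched as TGACTCA and TGAGTCA, was in 4.46% of all entries and in none of the members'. The sequences of 3 target genes follow, 5′ to 3′ on the strand of the gene, with the match in capitals. A match is a run of letters and not a measured binding site, and the expression files themselves, made with build mm9, hold no coordinates.
Cyr61 (chr3:145649986-145650235, minus strand): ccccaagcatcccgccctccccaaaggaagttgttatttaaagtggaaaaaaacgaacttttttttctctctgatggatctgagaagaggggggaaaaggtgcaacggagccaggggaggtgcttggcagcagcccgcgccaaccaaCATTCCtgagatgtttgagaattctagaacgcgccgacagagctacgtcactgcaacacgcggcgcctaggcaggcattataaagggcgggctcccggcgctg
Amotl2 (chr9:102717554-102717803, plus strand): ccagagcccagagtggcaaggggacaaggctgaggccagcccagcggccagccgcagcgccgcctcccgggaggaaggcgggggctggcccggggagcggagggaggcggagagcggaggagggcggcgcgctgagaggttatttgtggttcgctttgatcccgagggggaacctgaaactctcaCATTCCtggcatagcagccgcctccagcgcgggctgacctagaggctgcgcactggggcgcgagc
Ankrd1 (chr19:36119845-36120094, minus strand): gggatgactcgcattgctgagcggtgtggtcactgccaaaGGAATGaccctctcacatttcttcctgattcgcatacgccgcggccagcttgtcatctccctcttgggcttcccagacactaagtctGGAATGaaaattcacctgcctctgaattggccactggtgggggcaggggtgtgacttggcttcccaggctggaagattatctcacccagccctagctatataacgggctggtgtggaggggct
The match begins 103 bases before the start in Cyr61 and 65 bases before it in Amotl2. Ankrd1 holds 2 matches, which begin 210 and 123 bases before the start.

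Most members were well expressed. Ankrd1 and Lats2 were at a few RPKM or less in most libraries, and Tead4 was at 0.828 to 1.78 RPKM in the primed ones. In the naive wild-type libraries the order by mean RPKM was Yap1 (52.6), Ctgf (51.7), Tead2 (44.1), Tead1 (31.7), Amotl2 (30.3), Wwtr1 (28.1), Cyr61 (25.1), Tead4 (18.2), Lats2 (2.84) and Ankrd1 (0.0638). Only the first 2 of these neighbours, Yap1 and Ctgf, overlapped between their libraries. In the primed wild-type libraries Tead2 stood first at 159, followed by Ctgf at 143, Cyr61 at 128, Amotl2 at 84.4, Yap1 at 56.7, Wwtr1 at 36.1, Tead1 at 33.6, Lats2 at 5.56, Tead4 at 1.58 and Ankrd1 at 0.907 RPKM. Here the libraries overlapped between Tead2 and Ctgf, between Ctgf and Cyr61, and between Wwtr1 and Tead1. In the primed knockout libraries Yap1 ranked second behind Tead2, and Ctgf and Cyr61, which overlapped each other, came next. The authors' scaling is not stated, so it is not known whether levels can be compared between states, and they are ordered within a state and not tested between states.

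**Figure D1:**
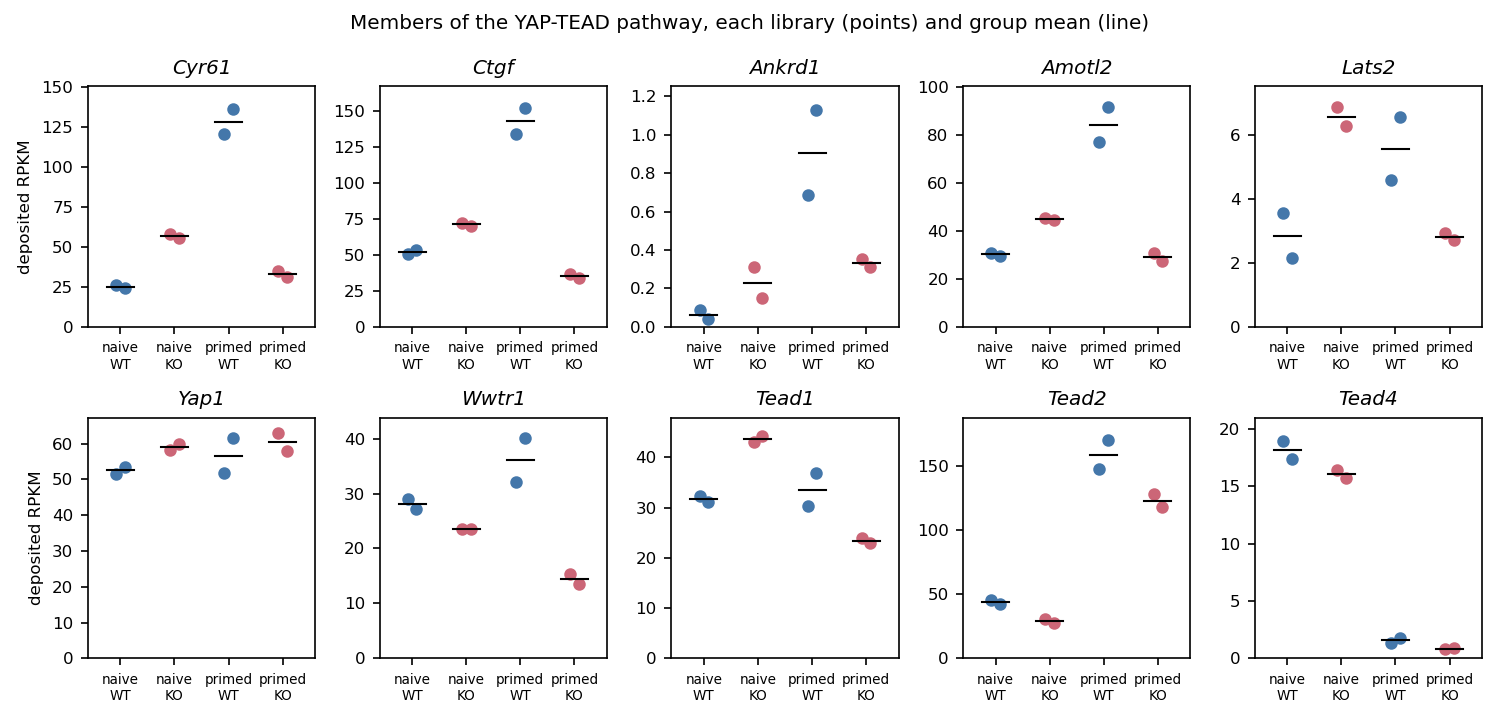
Deposited RPKM of the 10 members (vertical axis of each panel, from 0) in the 4 groups, with 1 point for each library and a line at the mean of 2. Cyr61, Ctgf, Amotl2, Lats2, Ankrd1 and Tead1 lie higher in the libraries labelled KO than in wild type in the naive state and lower in the primed state, while Yap1 stays between 51.6 and 62.9 RPKM in all 8 libraries. Of all tested genes, 31.2% had both naive KO libraries above wild type and 76.4% both primed knockout libraries below it. After quantile normalization within each state the primed Lats2 and Tead1 differences were 0.028 and 0.021, and neither passed.

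Cyr61, which encodes a secreted matricellular protein that binds integrins, was chosen for its opposite directions. In the naive state it stood at 26.0 and 24.3 RPKM in wild type and at 57.8 and 55.6 in the libraries labelled KO. Primed wild type had 120 and 137 RPKM, and primed knockout 35.0 and 31.0. All values of libraries labelled KO lay above wild type in the naive state and below it in the primed state, and in neither did the groups overlap. Of all tested genes, 31.2% had both naive KO libraries above both wild-type libraries and 21% had both below, and in the primed state these shares were 6.77% and 76.4%. The mean of the libraries labelled KO was 2.26-fold that of wild type in the naive state, and in the primed state the wild-type mean was 3.89-fold that of knockout. On the log2 scale the differences were 1.14 ± 0.11 and -1.93 ± 0.11 as deposited, and 1.11 and -1.60 after quantile normalization. Within each library Cyr61 stood at percentiles 85.5 and 85.8 of all rows in naive wild type, at 94.2 and 93.8 in the naive KO libraries, at 97.8 and 97.9 in primed wild type, and at 91.1 and 90.7 in primed knockout.

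Ctgf, the gene of the related matricellular protein CCN2, had the same directions with a smaller naive difference. It stood at 50.3 and 53.1 RPKM in naive wild type against 71.9 and 70.3 in the libraries labelled KO, and at 134 and 152 in primed wild type against 36.7 and 33.6 in knockout. The groups overlapped in neither state. Ctgf rose by 0.45 ± 0.10 in the naive state (limma adjusted p = 2.7e-04) and fell by 1.99 ± 0.10 in the primed state (adjusted p = 1.1e-80). The naive call ended with median centring (adjusted p = 0.0616) and without naive KO replicate 1 (adjusted p = 0.0709). An antisense transcript, Gm15270, overlaps its exons, and whether reads were counted by strand is not stated.

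The ratio of Cyr61 to Ctgf within a library removes any factor that scales both alike. It was 0.517 and 0.457 in naive wild type and 0.804 and 0.790 in the naive libraries labelled KO. Primed wild type gave 0.898 and 0.899, and primed knockout 0.954 and 0.921. The pair thus stood closer to 1 to 1 in all primed libraries than in the naive ones, and in naive wild type Ctgf was the more abundant by the widest margin of the 4 groups. The ratio does not remove a scaling that depends on the level of a gene. With 2 libraries against 2, a two-sided exact permutation test cannot go below p = 0.333, so no test of such ratios is given.

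Amotl2, which encodes an angiomotin that binds YAP and is also a target of it, rose in the naive and fell in the primed state. It stood at 31.0 and 29.6 RPKM in naive wild type against 45.6 and 44.4 in the libraries labelled KO, and at 77.1 and 91.7 in primed wild type against 30.8 and 27.6 in knockout. Both pairs of groups were apart. The differences were 0.56 ± 0.12 (limma adjusted p = 6.7e-05) and -1.50 ± 0.12 (adjusted p = 2.5e-35). The levels of the 2 states were not compared.

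Lats2, the gene of a Hippo kinase that phosphorylates YAP, was expressed at a few RPKM. It stood at 3.54 and 2.13 RPKM in naive wild type against 6.85 and 6.26 in the libraries labelled KO, and rose by 1.00 ± 0.28 (limma adjusted p = 0.0047). The rise was 0.96 after quantile normalization (adjusted p = 2.2e-06), but as deposited it did not pass without naive KO replicate 1 (0.228), without naive KO replicate 2 (0.137) or without naive wild-type replicate 2 (0.0527). Primed Lats2 stood at 4.58 and 6.54 RPKM in wild type against 2.92 and 2.71 in knockout, a difference of -0.77 ± 0.28 (adjusted p = 0.0111). That equals the median of -0.77 among genes of like level, and after quantile normalization the difference was 0.028 and did not pass (adjusted p = 0.603). The primed call also ended without either primed knockout replicate and without primed wild-type replicate 2 (adjusted p = 0.092, 0.142 and 0.142). Without a filter on low values neither Lats2 call passed (adjusted p = 0.0699 and 0.0601). In GENCODE M21, exons of a further gene model on the same strand, Gm49361, overlap Lats2. Whether this affected the Lats2 values, made with build mm9, is not known.

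Ankrd1, which encodes an ankyrin repeat protein of muscle nuclei and is a common reporter of YAP activity, was near the lower end of detection. It stood at 0.0858 and 0.0417 RPKM in naive wild type against 0.309 and 0.150 in the libraries labelled KO, and at 0.684 and 1.13 in primed wild type against 0.353 and 0.313 in knockout. The groups were apart in both states with the same directions as Cyr61. Of all tested genes, 31.2% had both naive KO libraries above both wild-type libraries, and 76.4% had both primed knockout libraries below. Among all rows of a primed library Ankrd1 stood at percentiles 46.7 and 45.7 in knockout against 47.8 and 47.6 in wild type. The naive percentiles were 39.1 and 36.5 in the libraries labelled KO against 21.5 and 30.5 in wild type. Ankrd1 did not reach 1 RPKM in 2 libraries and was not tested.

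Yap1 itself did not pass in either state as deposited. It stood at 51.6 and 53.6 RPKM in naive wild type against 58.2 and 60.0 in the libraries labelled KO, groups that did not overlap, with a difference of 0.16 ± 0.11 (limma adjusted p = 0.379). The primed values were 51.8 and 61.6 against 62.9 and 58.0, which overlapped, with a difference of 0.095 ± 0.11 (adjusted p = 0.444). Genes of like level had a median of -0.34 in that comparison, and after quantile normalization Yap1 was higher by 0.49 in the primed state (adjusted p = 8.0e-07) and by 0.14 in the naive state (adjusted p = 0.0016). Without primed wild-type replicate 1 the deposited primed difference was -0.028, and without replicate 2 it was 0.22 and passed (adjusted p = 0.0314). An antisense transcript, Gm20416, overlaps its exons.

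Wwtr1, the gene of TAZ, fell in the primed knockout libraries. It stood at 32.2 and 40.0 RPKM in primed wild type against 15.3 and 13.5 in knockout, a difference of -1.26 ± 0.15 (limma adjusted p = 7.4e-17), and quantile normalization left -0.71 of it (adjusted p = 6.8e-07). Naive Wwtr1 stood at 28.9 and 27.3 RPKM in wild type against 23.5 and 23.6 in the libraries labelled KO. Those groups did not overlap, but the difference of -0.24 ± 0.15 did not pass as deposited (adjusted p = 0.321), while after quantile normalization it was -0.28 and did (adjusted p = 2.6e-04), as it did with median centring (0.0358) and with each state fitted alone (0.0482).

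The ratio of Yap1 to Wwtr1 was higher in the libraries labelled KO than in wild type in both states. It was 1.78 and 1.97 in naive wild type and 2.47 and 2.54 in the libraries labelled KO. Primed wild type gave 1.61 and 1.54, and primed knockout 4.11 and 4.30. The 4 wild-type libraries thus lay between 1.54 and 1.97, and the 4 libraries labelled KO between 2.47 and 4.30. Both genes are given per length, so the ratio compares their RNA levels, not their proteins.

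Among the TEAD genes, Tead1 and Tead2 moved in opposite directions in the naive state. Tead1 stood at 32.2 and 31.1 RPKM in naive wild type against 43.1 and 44.2 in the libraries labelled KO, and rose by 0.45 ± 0.13 (limma adjusted p = 0.00683). Tead2 stood at 45.6 and 42.5 against 30.4 and 27.8 RPKM, and fell by 0.58 ± 0.10 (adjusted p = 4.3e-07). Neither pair overlapped, and both differences kept their sign and passed after quantile normalization (0.42 and -0.62). The Tead1 call ended without either naive KO replicate (adjusted p = 0.196 and 0.273), without naive wild-type replicate 2 (0.0799) and with the replicate number as a block (0.116). Exons of Cd37 on the other strand overlap Tead2, and whether reads were counted by strand is not stated.

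Both genes were lower in the primed state, Tead1 by an amount near the shift of all genes. Tead1 stood at 30.3 and 37.0 RPKM in wild type against 24.0 and 22.9 in knockout, and fell by 0.49 ± 0.13 (limma adjusted p = 3.8e-04), beside a median of -0.48 among genes of like level. After quantile normalization its difference was 0.021 and did not pass (adjusted p = 0.522). Tead2 stood at 147 and 170 RPKM in wild type against 128 and 118 in knockout, and fell by 0.36 ± 0.10 (limma adjusted p = 7.9e-04). Genes of the level of Tead2 had a median of -0.14, and quantile normalization left -0.15 of its fall (limma adjusted p = 0.0263). With median centring Tead2 was higher by 0.33 (adjusted p = 0.0478), and its call ended without primed knockout replicate 2 (adjusted p = 0.0646) and without a variance trend (0.0668).

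Tead4 was the lowest of the members' TEAD genes in every library. It stood at 18.9 and 17.4 RPKM in naive wild type and at 16.4 and 15.7 in the libraries labelled KO, but at 1.38 and 1.78 RPKM in primed wild type and 0.828 and 0.883 in primed knockout. Neither difference passed as deposited, with -0.17 ± 0.27 (limma adjusted p = 0.803) and -0.47 ± 0.27 (adjusted p = 0.11), although the groups did not overlap. After quantile normalization the naive difference was -0.22 (adjusted p = 0.0162), and the primed one turned to 0.16 (adjusted p = 0.0477). A pseudocount of 0.1 gave a primed difference of -0.80 that passed (adjusted p = 0.0339).

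The shares of the TEAD genes within a library are described without a test. In naive wild type Tead1 made up 32.4% and 33.6% of the summed RPKM of Tead1, Tead2, Tead3 and Tead4, and Tead2 45.8% and 46.0%. In the naive libraries labelled KO Tead1 took 46.6% and 49.2% and Tead2 32.9% and 31.0%, so their order was the reverse of that in wild type. In all 4 primed libraries Tead2 held between 76.8% and 80.7%, Tead1 between 15.2% and 16.7%, and Tead4 under 1%, from 0.524% to 0.808%. Tead3 held between 1.61% and 5.67% in the 8 libraries. The summed level was 99.6 and 92.5 RPKM in naive wild type against 92.6 and 89.9 in the libraries labelled KO, ranges that overlapped. The primed sums were 188 and 221 RPKM in wild type against 158 and 147 in knockout.

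**Figure D2:**
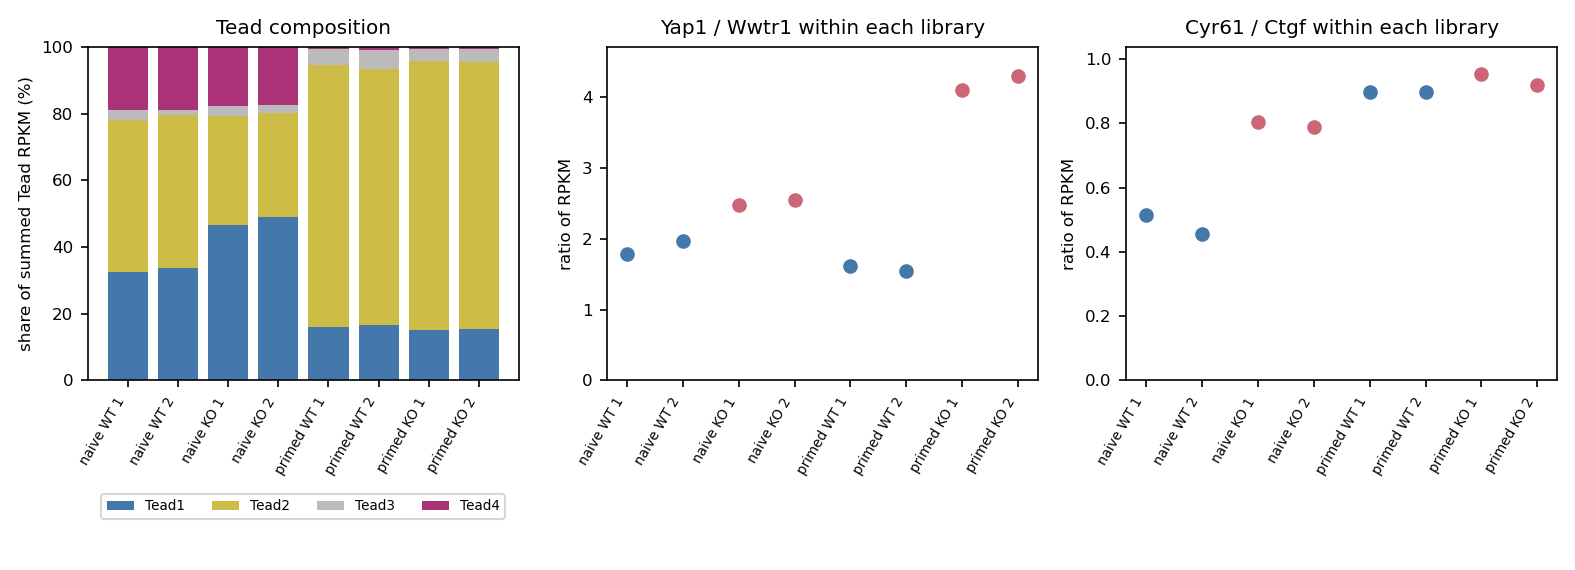
Left, share of the summed RPKM of the 4 Tead genes (vertical axis in percent) in each of the 8 libraries. Middle and right, the ratio of Yap1 to Wwtr1 and of Cyr61 to Ctgf in each library (vertical axes from 0, blue wild type, red labelled KO); the Yap1 to Wwtr1 ratio is at most 1.97 in wild type and at least 2.47 in the libraries labelled KO.

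Counted together, 8 members other than Cyr61 passed the filter, and 1, Ankrd1, did not. In the naive state 4 of the 8 rose (Ctgf, Amotl2, Lats2 and Tead1) and 1 fell (Tead2), beside 11.9% of all genes called in that comparison, 6.08% higher and 5.85% lower. Of the same 8, 6 fell in the primed state (Ctgf, Amotl2, Lats2, Wwtr1, Tead1 and Tead2), where 63.4% of all genes were called, 4.16% higher and 59.3% lower, so most genes of these libraries shared that direction. After quantile normalization 5 were higher and 3 lower in the naive state, beside 59.4% of all genes called (32% higher and 27.4% lower). In the primed state that normalization left 2 higher (Yap1 and Tead4) and 4 lower (Ctgf, Amotl2, Wwtr1 and Tead2), beside 74.1% called (39.4% higher and 34.6% lower). The median difference of the 8 was 0.31 in the naive and -0.63 in the primed state, beside 0.049 and -0.53 for all genes. Called higher in the naive and lower in the primed state were 4 of the 8, Ctgf, Amotl2, Lats2 and Tead1, beside 1.85% of all genes. After quantile normalization this held for Ctgf and Amotl2, beside 6.17% of all genes. Because the choice of Cyr61 used these comparisons, nothing further is read from the counts. Without naive KO replicate 1 the naive count of 5 was 2, without naive KO replicate 2 and without naive wild-type replicate 2 it was 3, and with a variance without a trend it was 2, since Ctgf, Amotl2 and Tead1 did not pass (limma adjusted p = 0.117, 0.0574 and 0.126).

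**Figure D3:**
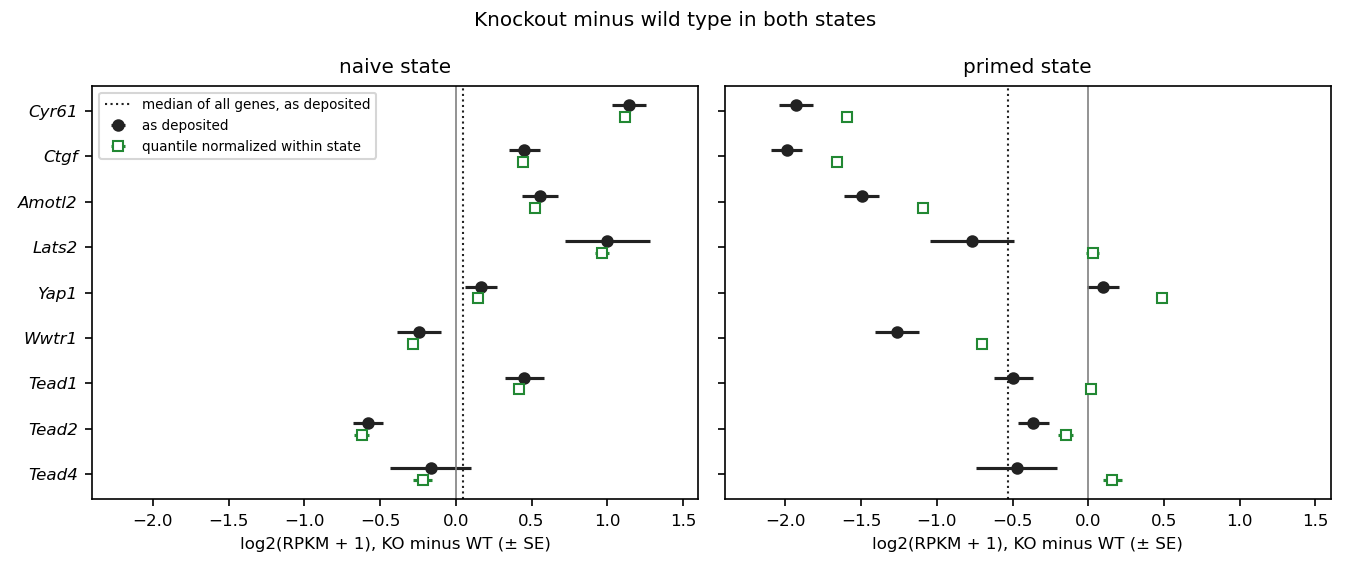
Labelled KO minus wild type in log2(RPKM + 1) (horizontal axis, ± SE) for the 9 members in the fit, as deposited (black) and after quantile normalization (green), with the median of all genes dotted. In the primed state quantile normalization shifts every member to the right, and Cyr61, Ctgf, Amotl2 and Wwtr1 stay below -0.7.

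The differences of KO from wild type, by label, of 5 members differed between the states in the test of the difference itself, beside 49.6% of all genes called there, 2.16% higher and 47.4% lower. Primed minus naive, the difference of effects was -2.44 ± 0.15 for Ctgf (limma adjusted p = 3.9e-60), -2.05 ± 0.17 for Amotl2 (1.3e-32), -1.77 ± 0.39 for Lats2 (5.9e-05), -1.02 ± 0.21 for Wwtr1 (8.1e-06) and -0.95 ± 0.18 for Tead1 (3.3e-06). For all genes the median of this difference was -0.59. After quantile normalization the same 5 passed, with -2.10, -1.61, -0.94, -0.42 and -0.40, and Yap1, Tead2 and Tead4 passed in the other direction with 0.35, 0.47 and 0.38, beside 64.4% of all genes called (34% higher and 30.5% lower). With median centring Wwtr1 and Tead1 did not pass (adjusted p = 0.138 and 0.319). Cyr61, chosen for this pattern, had a difference of -3.07.

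Other genes of the pathway were counted from lists of its remaining genes. Of 17 further YAP-TEAD targets 14 were tested. Of these, 2 rose in the naive state. Ptpn14, a phosphatase that restrains YAP, had 19.5 and 19.1 RPKM in the libraries labelled KO against 9.36 and 6.95, and rose by 1.16 ± 0.17 (limma adjusted p = 1.8e-09). Nt5e, the ectoenzyme CD73, stood at 9.77 and 9.44 against 5.58 and 3.60 RPKM, and rose by 0.95 ± 0.26 (adjusted p = 0.0048). That is 2 of 14 beside 6.08% of all genes called higher. Of the 14, 6 fell and 3 rose in the primed state, beside 59.3% of all genes called lower and 4.16% higher, with a median of -0.33 against -0.53 for all genes. Gadd45a, a stress gene that p53 also raises, stood at 14.1 and 13.1 RPKM in primed knockout against 52.9 and 69.0 in wild type, a difference of -2.07 ± 0.16 (limma adjusted p = 1.3e-34). Nuak2, a kinase, fell from a mean of 10.1 to 2.02 RPKM and F3, the gene of tissue factor, from 21.9 to 5.74. Ptpn14, Nt5e and Fjx1 rose in the primed state by 0.60, 0.72 and 0.61, so these targets did not share the primed direction of Cyr61 and Ctgf.

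After quantile normalization 9 of the 14 targets were higher and 5 lower in the primed state, and 9 higher and 3 lower in the naive state. The shares over all genes were 39.4% higher and 34.6% lower in the primed state, and 32% and 27.4% in the naive state. As deposited, only Ptpn14 passed in the naive state without naive KO replicate 1 or replicate 2, and without primed knockout replicate 1 the primed count was 5, all lower. Without primed wild-type replicate 1 the primed Nt5e difference was 0.46 and that of Fjx1 0.41, and neither passed (limma adjusted p = 0.123 and 0.175). Both also missed the threshold without primed knockout replicate 1 (0.146 and 0.344) and replicate 2 (0.105 and 0.0969), and Ptpn14 missed it without the former (0.061). Naive Nt5e missed it without either KO replicate (0.216 and 0.179) and without wild-type replicate 2 (0.0714).

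Of the Hippo kinases, their scaffolds and the LATS inhibitors of the Ajuba family, 19 of 21 were tested. Of the 19, 2 rose in the naive state, beside 6.08% of all genes: Map4k4, a kinase that can act upstream of LATS, by 0.59 ± 0.11 (limma adjusted p = 2.2e-06) and Ajuba by 0.41 ± 0.10 (adjusted p = 0.0016). As many as 13 fell in the primed state, with a median of -0.51 beside -0.53 for all genes, a share near the 59.3% of all genes called lower. Taok3, a kinase upstream of the Hippo kinases, stood at 4.87 and 5.22 RPKM in primed knockout against 23.6 and 29.9 in wild type, and fell by 2.19 ± 0.24. Wwc2, a scaffold of the KIBRA family, fell by 1.32 and Wtip, of the Ajuba family, by 1.22. Ajuba itself stood at 58.1 and 57.5 against 43.5 and 43.1 RPKM in the naive state and at 54.8 and 50.1 against 115 and 132 in the primed state, the directions of Cyr61 and Ctgf. The naive Ajuba call ended without either naive KO replicate (adjusted p = 0.123 and 0.0994), with median centring (0.0703) and with the replicate block (0.0715). After quantile normalization 8 of the 19 were higher and 6 lower in the primed state (39.4% and 34.6% of all genes), and 7 higher and 3 lower in the naive state (32% and 27.4%).

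Of the remaining TEAD gene, the Vgll cofactors, the other angiomotins and the tankyrases, 7 of 9 were tested. In the naive state limma called 0 of them, beside 11.9% of all genes, and 0 had an unadjusted p under 0.05. After quantile normalization 3 of the 7 passed in the naive state, all higher, beside 59.4% of all genes called and 32% called higher. A primed fall was called for 4 of the 7, near the 59.3% of all genes called lower, led by Tead3 at 5.76 and 5.54 RPKM in knockout against 9.04 and 12.5 in wild type, a difference of -0.81 ± 0.28 (limma adjusted p = 0.00686). Tnks, a tankyrase gene, and Amotl1, an angiomotin gene, fell by 0.55 and 0.50, close to the median of all genes. After quantile normalization these 3 differences were -0.077, -0.0049 and 0.10 and none passed. The remaining gene, Vgll4, a cofactor that competes with YAP for TEAD, differed by -0.50 as deposited (adjusted p = 0.039) and turned to a called 0.21 after quantile normalization (adjusted p = 0.0136). Vgll3, Amot and Tnks2 were also called higher then, so 4 of 7 were higher beside 39.4% of all genes. Without primed knockout replicate 1, primed knockout replicate 2 or primed wild-type replicate 2 the count of 4 was 1, with Tead3 no longer passing (adjusted p = 0.0826, 0.113 and 0.112), and without either naive KO replicate it was 2. Of the 4 other CCN family genes, relatives of Cyr61 and Ctgf, Wisp1 was tested and did not pass in either state (adjusted p = 0.97 and 0.467), while after quantile normalization it was higher by 0.49 in the primed state.

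Genes driven by SRF and its actin-sensing cofactors, which share several targets with YAP, were mixed in the naive state. Of 20 tested, 4 rose and 3 fell, beside 6.08% and 5.85% of all genes. Tagln, an actin-binding protein, stood at 3.77 and 3.72 RPKM in the naive KO libraries against 1.18 and 0.528 in wild type, and rose by 1.38 ± 0.19 (limma adjusted p = 5.7e-11). Its relative Tagln2 stood at 52.5 and 51.5 against 87.8 and 97.7 RPKM, and fell by 0.82 ± 0.089 (adjusted p = 1.2e-17). Primed calls were 14 lower and 1 higher, beside 59.3% and 4.16% of all genes, at a median of -0.86 against -0.53 for all genes. Quantile normalization left 12 lower and 6 higher, beside 34.6% and 39.4% of all genes, at a median of -0.39 against 0.026. With median centring 7 were lower and 6 higher, beside 3163 and 5580 of all 13428 genes, at a median of -0.17 against 0.16. Myl9, a myosin light chain, stood at 7.96 and 7.69 RPKM in primed knockout against 31.6 and 38.6 in wild type, and fell by 2.02 ± 0.27 (limma adjusted p = 1.1e-12). Zyx, the focal adhesion protein zyxin, stood at 79.2 and 71.4 RPKM in primed knockout against 53.5 and 63.5 in wild type, a rise of 0.36 ± 0.15 (adjusted p = 0.0267) that did not pass without primed wild-type replicate 1 (0.24, adjusted p = 0.0981), primed knockout replicate 1 (0.293) or replicate 2 (0.113). Without naive KO replicate 1 the naive count of 7 was 4.

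**Figure D4:**
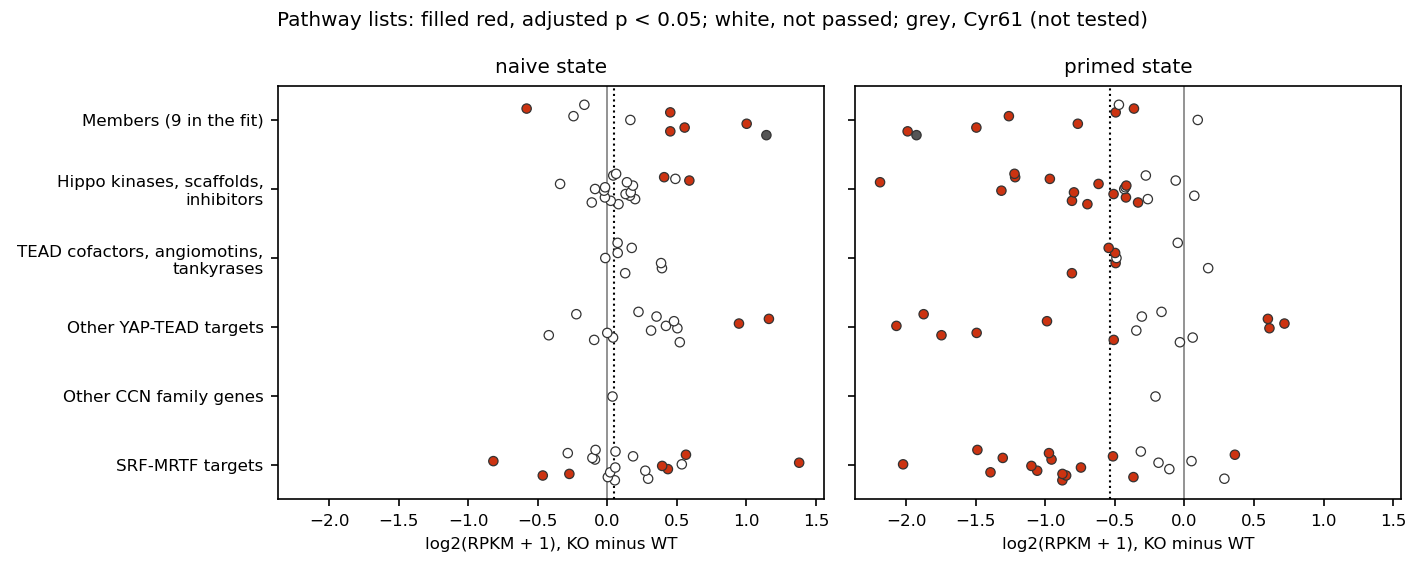
Labelled KO minus wild type in log2(RPKM + 1) (horizontal axis) for each tested gene of the members and of 5 pathway lists, as deposited, with the median of all genes dotted. Red genes passed at an adjusted p under 0.05; in the primed state the Hippo and the TEAD cofactor lists have medians of -0.51 and -0.50, near the dotted -0.53, the SRF list lies lower at -0.86 and the other targets higher at -0.33, and 3 targets, Ptpn14, Nt5e and Fjx1, lie above 0.5.

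Genes with the pattern most like that of Cyr61 over the 8 libraries were sought by the root mean square difference of log2(RPKM + 1), centred within each state. The candidates were 10084 tested genes with a proper gene name and a mean of at least 5 RPKM in some group. Symbols of the Gm, Rik and LOC kinds, and those like catalogue numbers or dates, were left out, so the ranks hold among named genes. Nearest were Got1l1 (0.102), the long noncoding RNA Platr22 (0.109), the stress-response factor Atf3 (0.166), the imprinted noncoding RNA H19 (0.167) and Pnldc1, a nuclease of piRNA maturation (0.172). Ctgf ranked 15th at 0.250 and Amotl2 17th at 0.258. Atf3 had 6.58 and 6.10 RPKM in the naive libraries labelled KO against 3.89 and 2.63, and at 8.03 and 7.94 in primed knockout against 26.5 and 32.3. Nearest to Ctgf were Platr10 (0.0681), Mme, the gene of neprilysin (0.0841), Epb41l4a (0.0993), the listed target Gadd45a (0.103) and Zfp57, a zinc-finger protein of imprinted loci (0.115). From Ctgf, Amotl2 ranked 51st and Cyr61 221st. Yap1 and Tead2 were among the least alike, at ranks 8820 and 9138 from Cyr61.

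Markers of fibroblasts, cells that express Cyr61 and Ctgf strongly, were lower in the primed knockout libraries, as were most genes there. Of all tested genes, 76.4% had both primed knockout libraries below both wild-type libraries, and the median difference was -0.53. Over 10 fibroblast markers the summed level was 39.7 and 54.6 RPKM in primed wild type against 16.2 and 17.2 in knockout. In these groups 6 and 5 of the 10 had a mean of 1 RPKM or more. All 10 had both primed knockout libraries below both wild-type libraries. Col3a1, the most abundant, stood at 20.5 and 26.5 against 9.53 and 8.75 RPKM, and Col1a1 at 5.38 and 8.12 against 2.97 and 3.14. Larger falls were seen for Dcn, at 4.801 and 7.11 against 1.321 and 1.3 RPKM, and for Col1a2, at 4.318 and 6.398 against 1.358 and 1.124. How the falls of these markers compare in size with the shift of all genes was not tested. Twist2, Prrx1, Lum and Postn were below 1 RPKM in every library. In the naive state the sum was 4.67 and 2.11 RPKM in wild type against 2.40 and 1.23 in the libraries labelled KO. These ranges overlapped, so no direction is read from them. Of the 10 fibroblast markers, 1 in naive wild type and 0 in the naive KO libraries had a mean of 1 RPKM or more. The part of such cells in the primed differences was not tested, and in bulk RNA fewer cells of a type and less RNA per cell cannot be told apart. Summed markers of primitive endoderm were at 4.05 and 6.19 RPKM in primed wild type against 2.88 and 3.17 in knockout. Those of trophoblast were at 66.0 and 79.6 against 87.2 and 94.0. Of the 8 trophoblast markers, 3 in primed wild type and 2 in primed knockout had a mean of 1 RPKM or more. Krt18 alone had means of 45.2 and 49.5 RPKM, so that sum rests on few genes.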

How the data were processed

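RNA-seq of 8 libraries was used, 2 for each of 4 groups taken from the sample titles. The deposited RPKM values, 1 per gene and library, went through a further scaling by the authors whose method is not stated: 0 values are exactly 0, and 0 rows are ERCC spike-ins, although spike-in RNA was added per the labels' protocols. Per the submitters' processing notes, the tools were cutadapt 1.9, STAR 2.5.2b, featureCounts 1.5.1 and affy, with build mm9. Parameters and the strand counted are not given there. Per the labels' protocols, total RNA was depleted of ribosomal RNA.

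A gene entered the fit if 2 or more libraries reached 1 RPKM. log2(RPKM + 1) was modelled with limma 3.58.1 in R 4.3.3 as 4 group means over 8 libraries, with the variance moderated along a trend in level and Benjamini-Hochberg adjustment over all 13428 genes at 0.05. With the deposited values every gene takes its variance from the trend alone (4 residual degrees of freedom, an infinite prior), so large changes get extremely small p-values. Quantile-normalized values had a prior of 3.73 degrees of freedom and a median residual SD of 0.0477, against 0.179. Genes of like level are those within 0.5 on the log2 scale. Their primed median differences, where not given above, were -0.32 for Cyr61, -0.30 for Ctgf, -0.38 for Amotl2, -0.53 for Wwtr1 and -0.60 for Tead4. No set test was run.

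The members and lists were chosen with earlier results of these data known. A fit on simulated data was also run. Its noise was independent between genes, so it does not cover offsets that the genes of a library share, and nothing is read from it. Named genes are the 10 members, Ino80, from each list up to 3 called genes per direction with the largest change, and the 5 genes nearest to Cyr61 and to Ctgf; some of these are given as counts only. Alternatives were a pseudocount of 0.1, no filter or 5 RPKM, median centring, quantile normalization over 8 libraries or within a state, loess normalization, each state alone, no variance trend, library weights, a replicate block and leaving out each library. Promoters are from RefSeq (GRCm38.p6) and overlaps from GENCODE M21. Figures used matplotlib 3.10.9 in Python 3.11.15.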

Additional observations from a re-analysis of the deposited data

Results flagged for a closer look

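The difference between libraries labelled KO and wild type was not the same in the primed and the naive state for 6 members, Cyr61 among them without a test. The naive libraries are KO by label only, since the Ino80 difference there did not pass (limma adjusted p = 0.975). The difference of these differences, primed minus naive on the log2 scale, was -3.07 for Cyr61, which was chosen for this contrast and was not tested. It was -2.44 for Ctgf, -2.05 for Amotl2, -1.77 for Lats2, -1.02 for Wwtr1 and -0.95 for Tead1, each past the limma threshold for the difference itself. Of all genes, 49.6% passed it as well, 2.16% higher and 47.4% lower. For all genes the median of this difference was -0.59.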

How the results depend on the processing

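Of 504 values of the members under the alternatives, 426 kept their direction and side of the threshold or, untested, moved within the spread, 23 lost the call, 26 gained it, 21 turned sign and 8 others moved by more than the spread. Scaling had the widest effect. The primed median of all genes was -0.53 as deposited, 0.026 after quantile normalization within each state and 0.16 with median centring, and the primed calls were split into 559 higher and 7958 lower as deposited against 5293 and 4652 after quantile normalization. The count of 5 members called in the naive state became 8 with quantile normalization of 8 libraries, with quantile normalization within each state and with loess, and 2 with a variance without a trend. The 5 called for the difference between states became 8 with the same 3 normalizations. The naive count over all genes, 1602 as deposited, was 4456 with median centring, 7967 with quantile normalization of 8 libraries, 7978 within each state, 7719 with loess, 2534 with each state fitted alone and 908 without a variance trend. For the pathway lists, 11 in the naive state, it was 20 with median centring, 38 with both quantile normalizations, 37 with loess and 5 without a trend. Leaving out each library in turn gave 2 to 5 naive and 4 to 7 primed members, and 5 to 6 for the difference. For all genes it gave 559 to 2950, 5523 to 9547 and 3446 to 8858, and for the lists 6 to 17 and 29 to 43. The primed minimum came without primed knockout replicate 2, and the naive minimum without naive KO replicate 1.

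Signs turned as follows, in the order median centring, quantile normalization of 8 libraries, quantile normalization within each state and loess. The primed Lats2 difference was 0.028, 0.028 and 0.025 with the last 3. The Yap1 difference between states was 0.68, 0.34, 0.35 and 0.30. The primed Tead1 difference was 0.20, 0.021 and 0.021 with the first 3, and that of Tead2 was 0.33 with the first. The primed Tead4 difference was 0.22, 0.15, 0.16 and 0.057, and its difference between states 0.45, 0.37, 0.38 and 0.30. Primed Tnks was 0.15 with the first, and primed Amotl1 was 0.20, 0.10, 0.10 and 0.066. Yap1 also turned to -0.028 in the primed state without primed wild-type replicate 1 and to 0.054 between states without replicate 2, with the latter ranging from -0.19 to 0.054 over the libraries left out. Naive Ino80 turned to 0.019 without naive KO replicate 2 and to 0.086 without naive wild-type replicate 1, and ranged from -0.13 to 0.086. The cause was not tested.

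Replicate numbers do not pair the samples by the labels, and same-numbered deviations correlated at 0.31 in the naive and -0.036 in the primed state, 1 value each. With the replicate block the naive count was 942 over all genes and 7 in the pathway lists. Read depth is not given in the files, so it is unknown how far counting error limits Ankrd1, Lats2 and primed Tead4.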
